A study of Mus musculus with 9 samples.

Results

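The transcripts described here are those encoded by the mouse mitochondrial genome, taken as every row of the count files whose gene symbol begins with mt-. There were 37 such genes among 38926 rows, namely 13 protein genes, 2 ribosomal RNAs (rRNAs) and 22 transfer RNAs (tRNAs). They were followed in dorsal root ganglia, the clusters of sensory neuron cell bodies beside the spinal cord, from wild-type male C57BL/6 mice aged 8 to 10 weeks. Ganglia L3 to L5 came from the side of the injected paws. The paws had received cisplatin (40 µg in all), oxaliplatin (40 µg in all) or vehicle. Cisplatin carries chloride and ammine ligands on its platinum atom, whereas oxaliplatin carries oxalate and diaminocyclohexane. Each group had 3 stranded total RNA libraries, and each library pooled RNA of 4 animals, so differences between single animals were not measured. The labels do not state the interval between the last injection and tissue collection.

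Mitochondrial DNA is a small circle transcribed from both strands into long precursor RNAs, in which tRNAs lie between most of the rRNAs and messages. Excision of the tRNAs releases the rRNAs and messages, and each RNA then has its own stability. The 13 proteins are subunits of respiratory complexes I, III and IV and of ATP synthase, and all other proteins of the organelle are made from nuclear genes. Sensory neurons depend heavily on mitochondria for their long axons, and platinum drugs, which bind DNA, are known for a dose-limiting sensory neuropathy.

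The libraries held 22819185 to 38808509 reads assigned to genes. Vehicle library 2 stood apart from the other 8. Reads that aligned to several places made up 51.0% of its recorded reads, against 25.9 to 33.8% elsewhere. Genes whose loci are known to collect ribosomal RNA reads (Gm26924, Lars2 and AY036118) took 17.4% of its gene reads, against at most 0.0941% elsewhere. The factors that the trimmed mean of M-values (TMM) method gave for scaling were 1.04 to 1.09 in cisplatin libraries, 1.05 to 1.104 in oxaliplatin libraries, and 0.960, 0.700 and 0.961 in vehicle libraries 1, 2 and 3. Reads outside annotated genes made up 18.6 to 19.1% of uniquely aligned reads with cisplatin, 16.6 to 17.8% with oxaliplatin and 26.2 to 47.7% with vehicle, and their part in the comparisons with vehicle was not tested. Values without vehicle library 2 are given beside the results that move with it. All 8 markers of sensory neurons were present in every library.

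The reads that could be assigned to a mitochondrial gene depended on where it lies on the circle. On GRCm38, 7 pseudogenes annotated side by side on the minus strand of chromosome 1 (chr1:24611535-24616197) follow chrM:6381-11042 in the same order, over 4663 bases of chromosome 1. The position of the match shifts by 1 base between the copy of mt-Nd3 and that of mt-Nd4l. A read that matches both places aligns more than once, and such reads were assigned to no gene in the deposited counts. The start of mt-Co2 (chrM:7013-7087, plus strand) and that of its copy Gm28661 (chr1:24615491-24615565, minus strand) are shown over 1 read length of 75 bases, because a read from either place cannot be told apart.
mt-Co2: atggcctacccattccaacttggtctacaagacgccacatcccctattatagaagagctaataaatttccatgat
Gm28661: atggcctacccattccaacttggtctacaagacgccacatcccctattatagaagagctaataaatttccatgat
Both are identical here, and the annotated Gm28661 transcript matched mt-Co2 at 681 of 681 aligned bases. The annotated Gm28437 transcript matched mt-Co3, another complex IV subunit, at 783 of 783 bases. The copied stretch, as annotated, ends within mt-Nd4, in the bases shown next (chrM:11003-11082, plus strand). The sequence of chromosome 1 past that end was not read, so whether the match goes on is not known. Bases shared with the annotated Gm28439 transcript are in capitals, and bases past the end of that annotation are in lower case.
mt-Nd4: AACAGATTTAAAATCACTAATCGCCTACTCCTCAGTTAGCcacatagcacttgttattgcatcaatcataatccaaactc

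Of all 75-base windows, 99.5% in mt-Co2, 99.5% in mt-Atp6, 99.9% in mt-Co3, 97.8% in mt-Nd3 and 98.7% in mt-Nd4l also occurred in an annotated nuclear pseudogene transcript. These 5 genes and mt-Atp8 had at most 2 reads in any library and 0 in most. The coding sequence of mt-Atp8, a small ATP synthase subunit, lies inside the same stretch, but its 130 windows matched no annotated transcript, and the chromosome itself was not used here. In all, 11 of the 37 genes lie wholly inside the stretch, 6 for proteins and 5 for tRNAs, and the 5 tRNAs were listed at 0 in every library. Gm10222 was at 0 in every library, and the other 6 pseudogenes of the stretch were not analysed here. In mt-Nd4, 61.5% of windows were shared with the stretch. In mt-Co1, 27.5% occurred in Gm29216 of the stretch, and 39.8% in Gm29216 or in Gm13340 on chromosome 2. The counts of both genes come from their other windows. The shares were 5.71% for mt-Nd2 and 1.66% for mt-Nd5, and 0 for mt-Nd1, mt-Nd6, mt-Cytb, mt-Rnr1 and mt-Rnr2. A count near 0 for mt-Co2, mt-Co3, mt-Atp6, mt-Nd3 or mt-Nd4l gives no level of that message.

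**Figure D1:**
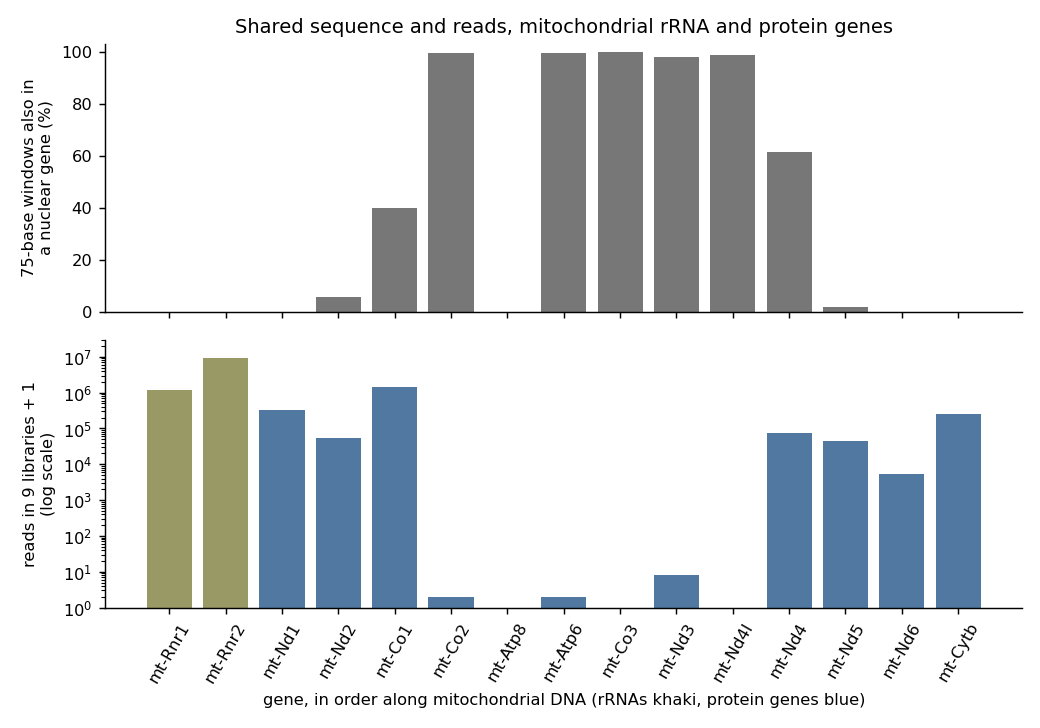
Upper panel: percent of the 75-base windows of each mitochondrial rRNA and protein gene that also occur in an annotated nuclear gene, with genes in order along mitochondrial DNA. Lower panel: reads summed over the 9 libraries plus 1, on a log scale. The genes with 97.8 to 99.9% shared windows and mt-Atp8 are the 6 with almost no reads, and mt-Rnr2 is the tallest bar.

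By RNA class, rRNA made up most assigned mitochondrial reads and tRNA almost none. Reads of shared sequence are missing from the protein class, in which 6 of 13 genes had at most 2 reads in any library. Windows of mt-Co1 and mt-Nd4 are also shared in part, and no window of the rRNAs occurred in another annotated transcript. The balance of rRNA to protein reads is therefore not that of the RNAs themselves. The rRNAs took 4.23, 3.75 and 4.67% of gene reads in cisplatin libraries 1, 2 and 3, against 2.10, 2.77 and 2.56% in oxaliplatin libraries and 2.15, 8.62 and 2.42% in vehicle libraries. All 3 cisplatin libraries were above all 3 oxaliplatin libraries and above vehicle libraries 1 and 3, and vehicle library 2 was above every other library. The mean was 4.22 ± 0.462% with cisplatin, 2.48 ± 0.345% with oxaliplatin and 4.40 ± 3.66% with vehicle (SD, n = 3 each), and 2.29% in the 2 other vehicle libraries. Protein genes took 0.807 ± 0.0600% with cisplatin, 0.734 ± 0.0388% with oxaliplatin and 0.628 ± 0.121% with vehicle, or 0.685% in vehicle libraries 1 and 3. Vehicle libraries had 0.613, 0.516 and 0.757%, so the highest of them overlapped the oxaliplatin range of 0.698 to 0.775% and lay just under the cisplatin range of 0.769 to 0.876%. On the TMM scale, levels (CPM) are reads scaled by each library's total multiplied by its TMM factor. On that scale the protein class averaged 7532 ± 458, 6799.8 ± 289 and 7213 ± 759 CPM with cisplatin, oxaliplatin and vehicle. The cisplatin libraries, at 7139 to 8035 CPM, lay just above the oxaliplatin libraries at 6613 to 7133 CPM, and the vehicle libraries at 6386 to 7876 CPM overlapped both. The 22 tRNAs together had 64 to 143 reads in the drug libraries and 46 to 124 in the vehicle libraries. No test was run on these sums. Exact 95% binomial intervals on the shares were at most 0.0115 percentage points on either side and cover counting error only.

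**Figure D2:**
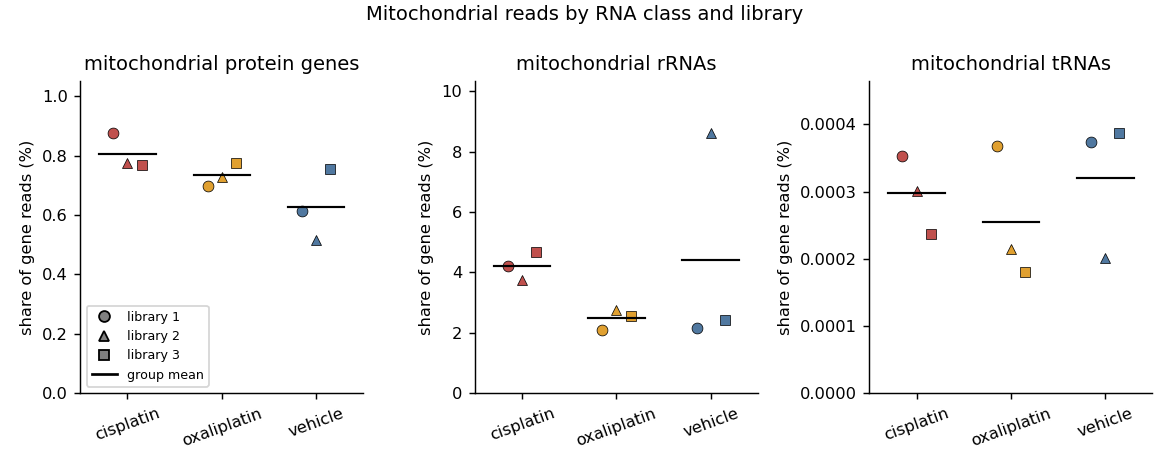
Share of gene reads (percent) taken by mitochondrial protein genes, rRNAs and tRNAs in each library, with a bar at each group's mean of 3 libraries. Cisplatin libraries lie between 3.75 and 4.67% for rRNA, above the oxaliplatin libraries at 2.10 to 2.77%, and vehicle library 2 lies at 8.62%.

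Of the 37 genes, 12 passed the filter on low counts and were tested with edgeR in the fit over 17348 genes. They were 7 protein genes, both rRNAs and 3 tRNAs. With cisplatin against vehicle, 4 of the 12 fell (mt-Nd2, mt-Nd4, mt-Nd5 and mt-Ti) and 0 rose at an adjusted p under 0.05, and 38.7% of all tested genes passed the same threshold, 22.9% lower and 15.8% higher. With oxaliplatin against vehicle, 6 of the 12 fell (mt-Nd2, mt-Nd4, mt-Nd5, mt-Cytb, mt-Rnr1 and mt-Ti) and 0 rose, against 41.6% of all tested genes, 24.1% lower and 17.5% higher. These are 33.3% and 50% of the tested members, so the shares called are near those of all genes, and those that passed were all lower. The median log2 fold change over the 12 was -0.51 with cisplatin and -0.81 with oxaliplatin, against 0.00 over all tested genes in each comparison. These comparisons share the vehicle libraries. The groups did not overlap in CPM for 3 of the 12 with cisplatin, against 48.0% of all genes, and for 6 of the 12 with oxaliplatin, against 50.5%. Without vehicle library 2, mt-Nd2, mt-Nd4, mt-Nd5 and mt-Ti still fell with cisplatin, mt-Rnr2 and mt-Nd1 rose, and the median was -0.13. Of all genes, 19.2% then rose and 22.1% fell. Without it, 5 fell with oxaliplatin, all but mt-Rnr1 of the 6, and the median was -0.41, while 20.4% of all genes rose and 23.0% fell. In these bulk samples, fewer cells of a type and less RNA per cell cannot be told apart.

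**Figure D3:**
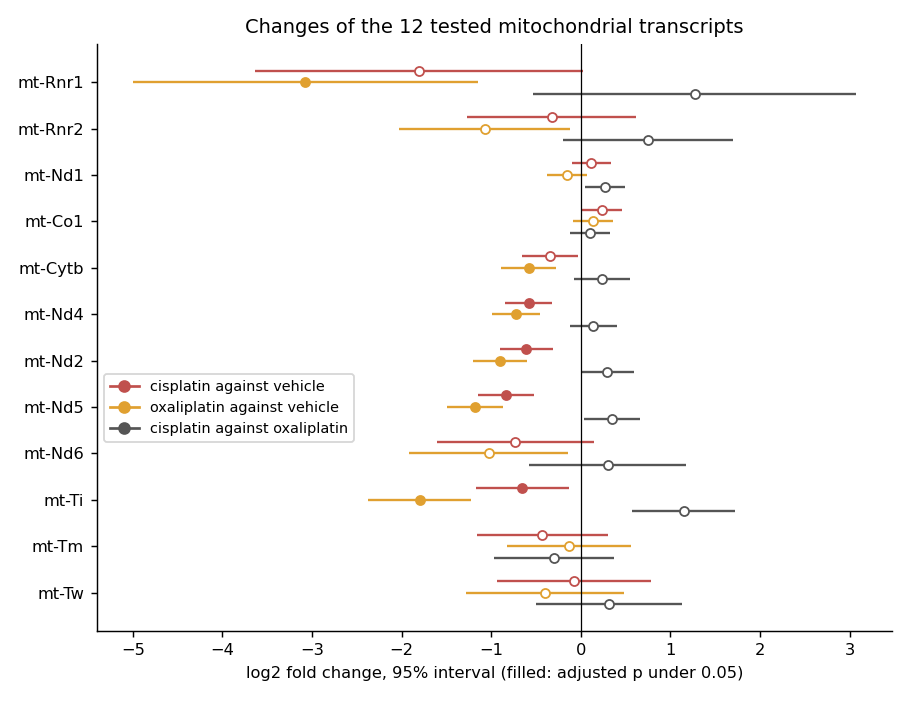
Log2 fold changes (points) with 95% intervals (lines) of the 12 tested mitochondrial transcripts in 3 comparisons, with filled points at an adjusted p under 0.05. mt-Nd5, mt-Nd2, mt-Nd4 and mt-Ti are filled in both comparisons with vehicle, and the rRNA intervals are the widest.

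Among the complex I subunits, mt-Nd5 showed the largest fall of any tested protein gene in both comparisons with vehicle. ND5 is a proton-pumping subunit of the membrane arm, and its gene (chrM:11742-13565, plus strand) is followed directly by the gene on the opposite strand, mt-Nd6. mt-Nd5 had 145, 119.9 and 129 CPM in cisplatin libraries 1, 2 and 3, 109, 95.8 and 105 CPM in oxaliplatin libraries, and 170.0, 281 and 254 CPM in vehicle libraries. The 3 groups did not overlap, with oxaliplatin lowest and vehicle highest. Its log2 fold change against vehicle was -0.84 ± 0.14 (SE, adjusted p = 0.000833) with cisplatin and -1.18 ± 0.14 (adjusted p = 8.12e-05) with oxaliplatin. Without vehicle library 2 the values were -0.67 (adjusted p = 0.00205) and -1.02 (adjusted p = 0.000167).

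mt-Nd2 and mt-Nd4 encode related pump subunits of the same arm. mt-Nd2 (chrM:3914-4951) had 184, 152 and 171 CPM with cisplatin, 141, 133 and 139.6 CPM with oxaliplatin, and 188, 303 and 282 CPM with vehicle. The lowest vehicle library, number 1, was only just above the highest cisplatin library. The fall was -0.61 ± 0.14 (adjusted p = 0.00451) with cisplatin and -0.90 ± 0.14 (adjusted p = 0.000360) with oxaliplatin. mt-Nd4 (chrM:10167-11544) had 251, 207 and 231 CPM with cisplatin, 214, 199 and 213 CPM with oxaliplatin, and 265, 393 and 374 CPM with vehicle. Again every drug library was below every vehicle library, and vehicle library 1 was the lowest of its group. Its log2 fold change was -0.58 ± 0.12 (adjusted p = 0.00296) with cisplatin and -0.72 ± 0.12 (adjusted p = 0.000706) with oxaliplatin. Leaving out vehicle library 2, mt-Nd2 had -0.46 (adjusted p = 0.0148) and -0.75 (adjusted p = 0.000895), and mt-Nd4 had -0.46 (adjusted p = 0.00904) and -0.60 (adjusted p = 0.00194). When libraries were scaled by their totals alone, which shifted the median of all genes by 0.29 with cisplatin and 0.30 with oxaliplatin, the cisplatin calls were lost for mt-Nd2 (-0.29, adjusted p = 0.125) and mt-Nd4 (-0.27, adjusted p = 0.168). The oxaliplatin calls of both and both calls of mt-Nd5 passed under each of 21 alternatives.

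mt-Nd1, at the junction of the membrane and matrix arms, did not follow mt-Nd2, mt-Nd4 and mt-Nd5. It had 1199, 1104 and 1096 CPM with cisplatin, 926, 910.2 and 982 CPM with oxaliplatin, and 885, 1178 and 1071 CPM with vehicle, and vehicle overlapped both drugs. Neither comparison with vehicle passed, with log2 fold changes of 0.12 (95% interval -0.10 to 0.34) for cisplatin and -0.15 (-0.37 to 0.07) for oxaliplatin. Without vehicle library 2, mt-Nd1 was higher with cisplatin by 0.23 (adjusted p = 0.0455). mt-Nd6 (chrM:13552-14070) is the sole protein gene on the minus strand, opposite the precursor that carries the others. It had 17.5, 14.2 and 18.1 CPM with cisplatin, 15.1, 12.4 and 12.98 CPM with oxaliplatin, and 9.52, 52.8 and 23.5 CPM with vehicle. Vehicle libraries held both its lowest value and its highest value. Neither comparison passed (-0.73, adjusted p = 0.172 with cisplatin, and -1.03, adjusted p = 0.0613 with oxaliplatin), and without vehicle library 2 the values were 0.01 and -0.28. Without vehicle library 1, the lowest, both passed (-1.14, adjusted p = 0.00865, and -1.44, adjusted p = 0.00256). No source used here gives the strand setting of the counting, so its reads cannot be told from antisense reads of the opposite precursor.

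**Figure D4:**
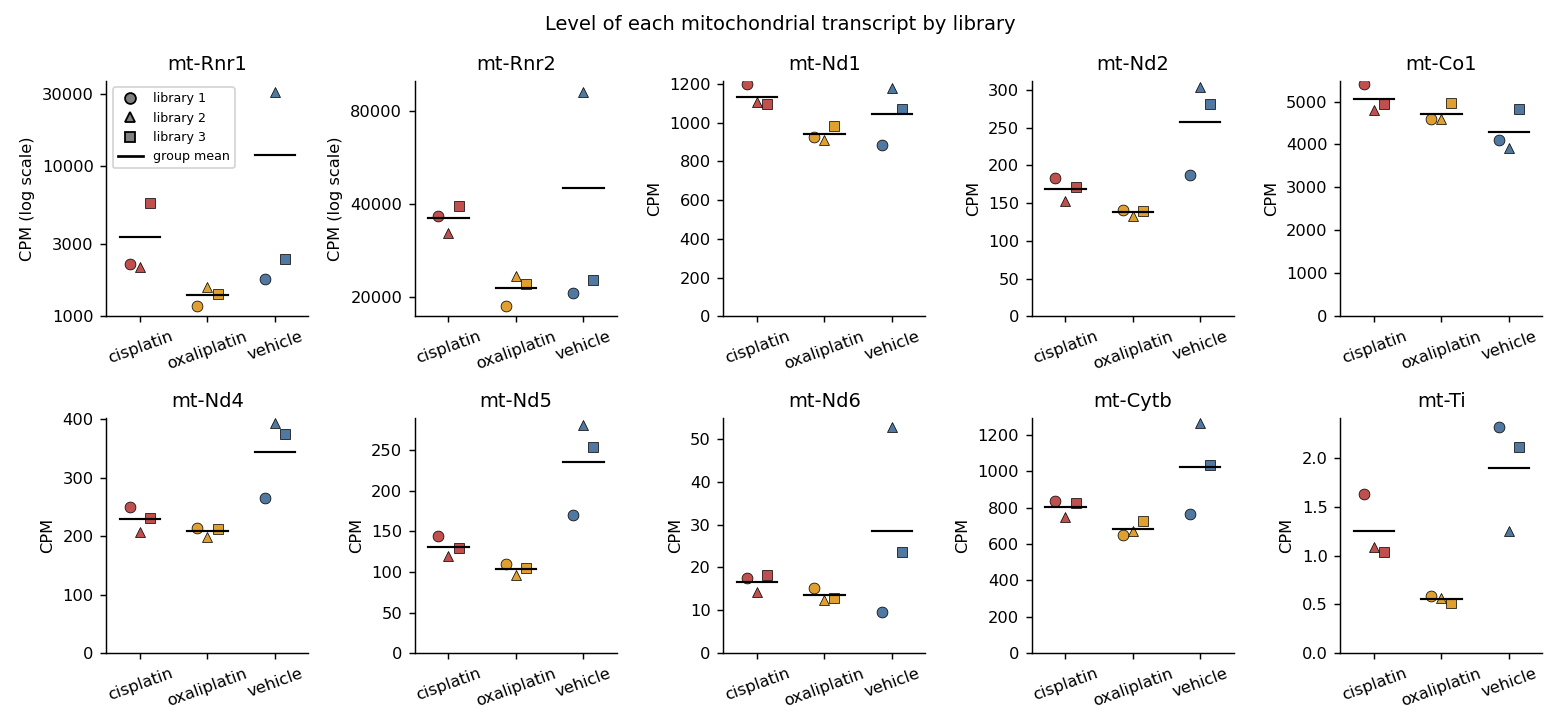
Level (CPM) of both rRNAs, the 7 countable protein genes and mt-Ti in each library, with a bar at each group's mean of 3 libraries and log axes for the rRNAs. Vehicle library 1 is the lowest vehicle library for mt-Nd2, mt-Nd4 and mt-Nd5 yet lies above every drug library, and vehicle library 2 is far above the rest for mt-Rnr1, mt-Rnr2 and mt-Nd6.

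Cytochrome b, encoded by mt-Cytb (chrM:14145-15288), is the catalytic core of complex III. mt-Cytb had 837, 749 and 826 CPM with cisplatin, 649.9, 673 and 723 CPM with oxaliplatin, and 764, 1263 and 1036 CPM with vehicle. Oxaliplatin libraries were below all vehicle libraries, and cisplatin libraries overlapped vehicle library 1. The fall with oxaliplatin was -0.58 ± 0.14 (adjusted p = 0.00654), and -0.38 (adjusted p = 0.0137) without vehicle library 2. It was lost with library totals alone (-0.24, adjusted p = 0.278). With cisplatin the log2 fold change was -0.34 (adjusted p = 0.0735), and -0.49 (adjusted p = 0.00553) without vehicle library 1. It was -0.14 (adjusted p = 0.301) without vehicle library 2 and -0.015 (adjusted p = 0.954) with library totals alone. The cisplatin value passed under 3 of 21 alternatives.

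mt-Co1 (chrM:5328-6872), the heme- and copper-bearing catalytic subunit of complex IV, was the most abundant countable message. It had 5402, 4792 and 4952 CPM with cisplatin, 4599, 4589 and 4957 CPM with oxaliplatin, and 4104, 3909 and 4835 CPM with vehicle. Vehicle library 3 lay within the range of both drugs, and the other vehicle libraries were below all drug libraries. The log2 fold changes were 0.24 (95% interval 0.01 to 0.46, adjusted p = 0.0868) with cisplatin and 0.14 (-0.09 to 0.36, adjusted p = 0.301) with oxaliplatin. The cisplatin value was 0.33 (adjusted p = 0.0270) without vehicle library 3. With library totals alone it was 0.52 (adjusted p = 0.0290), where the median of all genes was 0.29. It was 0.19 (adjusted p = 0.107) without vehicle library 2, and 0.14 (adjusted p = 0.379) with GC content and exon length trends removed. The cisplatin value passed under 5 of 21 alternatives. For ATP synthase, the summed count of mt-Atp6 and mt-Atp8 was 1 read over all 9 libraries, so no level can be given.

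Levels per length were set over the windows that occurred in no other annotated transcript, and nuclear copies without an annotation were not searched for. Mean levels in vehicle libraries ran from 30009.7 CPM per kilobase of windows for mt-Rnr2 through 13251 for mt-Rnr1, 4839 for mt-Co1, 1183 for mt-Nd1, 954 for mt-Cytb, 685 for mt-Nd4, 283 for mt-Nd2 and 137 for mt-Nd5 to 64.3 for mt-Nd6. Both rRNA means rest on vehicle library 2. mt-Rnr2 had 13712, 61220 and 15097 CPM per kilobase in vehicle libraries 1, 2 and 3, and mt-Rnr1 had 2024, 35022 and 2708. Without that library mt-Rnr2 averaged 14405, mt-Co1 5050 and mt-Rnr1 2366, so mt-Rnr1 lay below mt-Co1, as it did with cisplatin (3791 ± 2284) and with oxaliplatin (1571 ± 219). The protein genes kept their order with cisplatin, with oxaliplatin and without vehicle library 2. In vehicle libraries the range of 1 SD about the mean of mt-Rnr1 (SD 18857), whose SD exceeds its mean, overlapped those of all the others. Such ranges also overlapped between mt-Rnr2 (SD 27038) and mt-Co1 (SD 551) and between mt-Nd1 (SD 167) and mt-Cytb (SD 233). The same held between mt-Cytb and mt-Nd4 (SD 138) and between mt-Nd5 (SD 33.6) and mt-Nd6 (SD 49.6).

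The make-up of the mitochondrial protein reads does not depend on how libraries are scaled. Nearly all of these reads come from the 7 countable genes, so the shares are not those among all 13 messages. mt-Co1 held 67.2, 67.1 and 66.7% of the reads with cisplatin, 69.1, 69.4 and 69.5% with oxaliplatin, and 64.3, 53.0 and 61.4% with vehicle. The 3 groups did not overlap, with oxaliplatin highest and vehicle lowest. mt-Nd5 held 1.80, 1.68 and 1.74% with cisplatin, 1.64, 1.45 and 1.47% with oxaliplatin, and 2.66, 3.80 and 3.23% with vehicle. Its groups did not overlap either, in the opposite order. mt-Nd5 had 2.60 ± 0.0911 reads for every 100 of mt-Co1 with cisplatin, 2.20 ± 0.161 with oxaliplatin and 5.53 ± 1.54 with vehicle (SD, n = 3 each), or 4.70 in vehicle libraries 1 and 3. mt-Nd2, which lies beside mt-Nd1 on the circle with 3 tRNAs between them, had 14.9 ± 0.975, 14.7 ± 0.480 and 24.4 ± 2.79 reads for every 100 of mt-Nd1 with cisplatin, oxaliplatin and vehicle. Both drugs were below every vehicle library in this ratio, which averaged 23.8 in vehicle libraries 1 and 3. The shares of mt-Nd2, mt-Nd4 and mt-Cytb were also lower in every drug library than in every vehicle library, vehicle libraries 1 and 3 included, while those of mt-Nd1 and mt-Nd6 overlapped. Shares of a whole are not independent of each other, and no test was run on them.

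The rRNA genes turned on single libraries. mt-Rnr1 encodes the RNA of the small ribosomal subunit and mt-Rnr2 that of the large subunit, and their first 75 bases are shown on GRCm38 (chrM:70-144 and chrM:1094-1168, plus strand) because no window of either occurred in an annotated nuclear transcript. The tRNA mt-Ti (chrM:3706-3774, plus strand), shorter than a read at 69 bases, is shown with them as the tested transcript with the largest fall after mt-Rnr1 with oxaliplatin.
mt-Rnr1: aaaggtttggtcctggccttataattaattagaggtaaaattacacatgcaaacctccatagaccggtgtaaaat
mt-Rnr2: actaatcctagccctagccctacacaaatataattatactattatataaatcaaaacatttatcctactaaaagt
mt-Ti: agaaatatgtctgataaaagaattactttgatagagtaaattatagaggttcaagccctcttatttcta
mt-Rnr1 had 2217, 2139 and 5662 CPM in cisplatin libraries 1, 2 and 3, 1179.5, 1562 and 1412 CPM in oxaliplatin libraries, and 1783, 30854 and 2385 CPM in vehicle libraries. Cisplatin library 3 and vehicle library 2 were high, and every oxaliplatin library was below every other library. The log2 fold change was -1.81 ± 0.84 (adjusted p = 0.108) with cisplatin and -3.08 ± 0.88 (adjusted p = 0.0153) with oxaliplatin. Without vehicle library 2 these became 0.70 (adjusted p = 0.128) and -0.57 (adjusted p = 0.191), so the oxaliplatin call was lost. With cisplatin library 3 left out as well they were 0.08 (adjusted p = 0.675) and -0.57 (adjusted p = 0.00431). The oxaliplatin call was kept in that fit, with a smaller fall than over all libraries. The call was also lost without oxaliplatin library 3 (-3.09, adjusted p = 0.0516), and the cisplatin value passed without vehicle library 1 (-2.29, adjusted p = 0.0430) or 3 (-2.29, adjusted p = 0.0489).

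mt-Rnr2 had 36546, 32368 and 39439 CPM with cisplatin, 18799.6, 23531 and 22171 CPM with oxaliplatin, and 20678, 92319.6 and 22766 CPM with vehicle. Vehicle libraries 1 and 3 lay within the oxaliplatin range and below all cisplatin libraries. Over all libraries neither comparison with vehicle passed (-0.33, adjusted p = 0.582 with cisplatin, and -1.07, adjusted p = 0.0682 with oxaliplatin). Without vehicle library 2, mt-Rnr2 was higher with cisplatin by 0.75 (adjusted p = 0.000752), and the oxaliplatin value was 0.00. Without vehicle library 1 or 3 the oxaliplatin value passed (-1.39 for each, adjusted p = 0.0256 and 0.0272). Leaving out cisplatin library 3 as well gave 0.68 (adjusted p = 0.00265) for cisplatin.

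Reads of the larger rRNA per read of the smaller one numbered 16.5, 15.1 and 6.97 with cisplatin, 15.9, 15.1 and 15.7 with oxaliplatin, and 11.6, 2.99 and 9.54 with vehicle. Oxaliplatin was above every vehicle library, and the low cisplatin library was number 3. Lars2, the mitochondrial leucyl tRNA synthetase, had 27.5, 45.2 and 232 CPM with cisplatin, 48.1, 39.8 and 48.1 CPM with oxaliplatin, and 60.7, 37512 and 57.7 CPM with vehicle, so its high libraries are the same as those of mt-Rnr1. mmu-mir-6236, named after its values were seen, was also high in cisplatin library 3 (963 CPM) and vehicle library 2 (30384 CPM), against 45.2 to 233 CPM elsewhere. Gm26924 had 211754 CPM in vehicle library 2, but 641 CPM in cisplatin library 3, little above the 355 to 597 CPM elsewhere. Gm23935, also named afterwards, had 28871 CPM in vehicle library 2, and 2039 CPM in cisplatin library 3 against 2474 CPM in vehicle library 3. AY036118 was lowest in cisplatin library 3 (35.9 CPM) and had 251, 161 and 172 CPM in vehicle libraries 1, 2 and 3. The part of carried-over ribosomal RNA in the rRNA values was not tested.

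**Figure D5:**
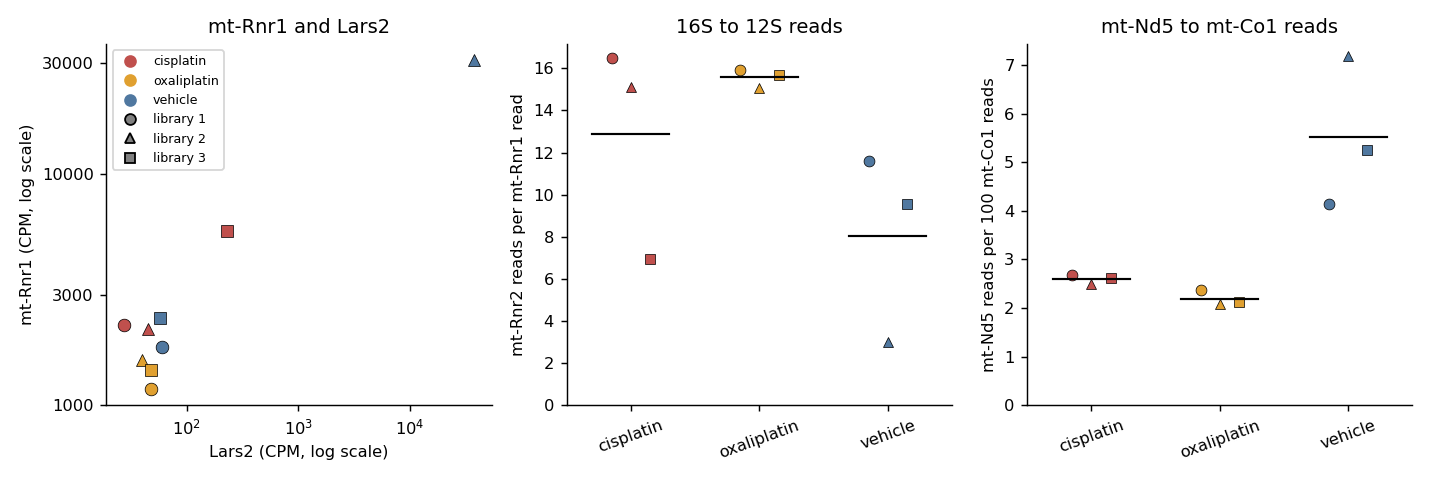
Left: mt-Rnr1 against Lars2 (CPM, log axes), 1 point per library. Middle and right: mt-Rnr2 reads per mt-Rnr1 read, and mt-Nd5 reads per 100 mt-Co1 reads, by library with a bar at each group's mean. Cisplatin library 3 and vehicle library 2 are high for both genes on the left and low in the middle (6.97 and 2.99), whereas on the right every drug library lies below every vehicle library.

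The tRNAs were barely counted. Their annotated lengths are at most 75 bases, so a read of 75 bases has to extend past nearly all of them. Among the 22, 10 were listed at 0 in every library. They were the 5 inside the copied stretch, for which a count of 0 gives no level, and mt-Tf, mt-Tn, mt-Th, mt-Ts2 and mt-Tl2. For these last 5, a count of 0 allows up to 0.0711 to 0.188 CPM, the worth of 3 reads in each library, which limits the reads assigned and not the level of the tRNA. The 9 tRNAs with reads that were not tested had at most 32 reads in a library, the highest being mt-Tt in oxaliplatin library 1, against 1 to 7 reads elsewhere. Tested were mt-Ti, mt-Tm and mt-Tw, which carry isoleucine, methionine and tryptophan.

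mt-Ti begins within the last bases of mt-Nd1 and had 57, 45 and 39 reads with cisplatin, 24, 24 and 20 reads with oxaliplatin, and 62, 20 and 65 reads with vehicle. In CPM these are 1.63, 1.08 and 1.04 with cisplatin, 0.590, 0.569 and 0.518 with oxaliplatin, and 2.32, 1.25 and 2.11 with vehicle. Oxaliplatin libraries were below all others, and cisplatin libraries overlapped vehicle library 2. The fall with oxaliplatin was -1.80 ± 0.26 (adjusted p = 0.000268), and -1.96 (adjusted p = 0.000118) without vehicle library 2. With cisplatin it was -0.65 ± 0.24 (adjusted p = 0.0473), and -0.81 (adjusted p = 0.0120) without that library. The cisplatin call was lost without any 1 of cisplatin libraries 2 and 3, the 3 oxaliplatin libraries, and vehicle libraries 1 and 3 (adjusted p = 0.0595 to 0.220). After each library's trends with GC content and exon length were removed, the cisplatin value turned to 0.59 (adjusted p = 0.162) and the oxaliplatin call was lost (-0.46, adjusted p = 0.335). mt-Tm had 11 to 32 reads and mt-Tw had 6 to 25 reads in a library, and neither passed in any comparison.

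Cisplatin and oxaliplatin were given at the same cumulative dose by mass, and this 1 pair of compounds was set side by side. The labels do not give the doses as amounts of platinum. Of the 12 tested transcripts, 0 passed, with 3 at an unadjusted p under 0.05 (mt-Nd1, mt-Nd5 and mt-Ti). Over all tested genes 2 passed, or 0.0115%. The log2 fold change of cisplatin over oxaliplatin was above 0 for 11 of the 12, with a median of 0.30 against 0.00 over all tested genes. The 2 groups did not overlap for 7 of the 12, against 14.1% of all genes. The difference was 0.75 (95% interval -0.20 to 1.70, adjusted p = 0.798) for mt-Rnr2, 1.27 (-0.53 to 3.08, adjusted p = 0.817) for mt-Rnr1 and 1.15 (0.57 to 1.72, adjusted p = 0.538) for mt-Ti. For the messages it ran from 0.10 (-0.13 to 0.32) for mt-Co1 to 0.34 (0.03 to 0.66) for mt-Nd5, so differences of those sizes are not set apart from 0 over all genes. Scaled by library totals alone, mt-Rnr1 (1.24, adjusted p = 8.67e-07) and mt-Ti (1.14, adjusted p = 0.0128) passed, as did 0.392% of all genes. The mt-Rnr1 difference leans on cisplatin library 3, with 5662 CPM against 2217 and 2139 CPM in cisplatin libraries 1 and 2. On the TMM scale, without that library and vehicle library 2, it was 0.65 (adjusted p = 0.161). In rRNA reads per mitochondrial protein read, the 3 cisplatin libraries (4.82, 4.83 and 6.08) lay above the 3 oxaliplatin libraries (3.002, 3.79 and 3.31), and vehicle libraries had 3.52, 16.7 and 3.19.

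Nuclear genes that serve these RNAs were read from 7 lists, whose medians lay between -0.12 and 0.16 against 0.00 over all tested genes. Over all tested genes, 15.8% rose and 22.9% fell with cisplatin, and 17.5% rose and 24.1% fell with oxaliplatin. Of 10 genes for mitochondrial transcription, 0 passed with cisplatin and 1 fell with oxaliplatin. It was Mterfd1, a termination factor family member, with 14.0 ± 0.560 CPM against 19.0 ± 0.940 CPM with vehicle (-0.43, adjusted p = 0.00130). Of 15 genes for cleavage and end processing, 2 rose and 3 fell with cisplatin, and 1 rose and 3 fell with oxaliplatin. Those that passed were 33.3% and 26.7% of the list, under the 38.7% and 41.6% of all genes. Pde12, which trims poly(A) tails in the organelle, had 29.3 ± 0.990 CPM with cisplatin, 28.5 ± 0.986 CPM with oxaliplatin and 36.0 ± 2.37 CPM with vehicle, and passed in both comparisons (-0.30, adjusted p = 0.00283, and -0.34, adjusted p = 0.00120). Of 7 genes for stability and decay, 2 rose and 2 fell with cisplatin, and 2 rose and 3 fell with oxaliplatin. Lrpprc, whose protein binds and stabilises mitochondrial messages, had 125 ± 6.58 CPM with cisplatin and 153 ± 5.77 CPM with vehicle (-0.29, adjusted p = 0.00332).

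Of 19 genes for rRNA modification and ribosome assembly, 4 rose and 1 fell with cisplatin, and 7 rose and 2 fell with oxaliplatin. Those that passed were 26.3% and 47.4% of the list. Mrm1, a methyltransferase of the large rRNA, had 26.8 ± 0.596, 27.3 ± 0.819 and 22.0 ± 0.395 CPM with cisplatin, oxaliplatin and vehicle. Of 12 genes for tRNA modification, 0 rose and 1 fell with cisplatin, and 1 rose and 1 fell with oxaliplatin. Nsun3, which methylates the mitochondrial methionine tRNA, had 7.43 ± 0.117 CPM with cisplatin, 6.34 ± 0.403 CPM with oxaliplatin and 11.2 ± 1.27 CPM with vehicle (-0.58, adjusted p = 0.000494, and -0.81, adjusted p = 5.23e-05). Of 17 tRNA synthetases, 2 rose and 1 fell with each drug, and the 1 that fell was Lars2. When vehicle library 2 was left out, 0 fell with either, and 3 rose with cisplatin. In that fit 19.2% of all genes rose and 22.1% fell with cisplatin, and 23.0% fell with oxaliplatin. Of 11 genes for mitochondrial DNA maintenance, 0 passed with cisplatin, and 3 rose and 1 fell with oxaliplatin.

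The direction of these counts depended on scaling. With library totals alone, 34.5% of all genes rose and 5.29% fell with cisplatin, and 36.9% rose and 5.74% fell with oxaliplatin. Of the rRNA modification and assembly genes, 13 then rose and 0 fell with each drug. Of the transcription genes, 5 rose with each, and of the DNA maintenance genes, 4 rose with cisplatin and 6 with oxaliplatin, with 0 lower in either list. Of the cleavage genes, 2 rose with cisplatin and 8 with oxaliplatin, and of the stability genes, 2 and 3, again with 0 lower. Of the tRNA modification genes, 4 rose and 0 fell with cisplatin, and 3 rose and 1 fell with oxaliplatin. Of the synthetases, 6 rose and 1 fell with cisplatin, and 7 rose and 1 fell with oxaliplatin.

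Nuclear subunits of the same respiratory complexes were also read from the fit. Of 36 nuclear complex I subunits, 17 rose and 1 fell with cisplatin, and 25 rose and 1 fell with oxaliplatin, with medians of 0.17 and 0.22 against 0.00 over all tested genes. The shares that rose were 47.2% and 69.4%, beside 15.8% and 17.5% of all genes. Ndufv3, an accessory subunit, had 100.01 ± 0.292 CPM with cisplatin, 100.9 ± 3.50 CPM with oxaliplatin and 77.8 ± 1.76 CPM with vehicle. Of 9 complex III subunits, 3 rose with cisplatin and 5 with oxaliplatin, and of 11 complex IV subunits, 8 rose with each (medians 0.12 and 0.19, and 0.24 and 0.28). Of 14 ATP synthase subunits tested, 6 rose with cisplatin and 7 with oxaliplatin (medians 0.18 and 0.19), and 0 fell in these 3 lists. With vehicle library 2 left out, the numbers that rose with cisplatin were 27 for complex I, 5 for complex III, 9 for complex IV and 10 of the 15 then tested for ATP synthase, and with oxaliplatin 28, 6, 8 and 10. In that fit 19.2% of all genes rose with cisplatin and 20.4% with oxaliplatin.

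After trends with GC content and exon length were removed, fewer of these subunits rose in each list. The complex I counts became 2 higher and 4 lower with cisplatin, and 7 higher and 6 lower with oxaliplatin. Complex III had 1 higher and 1 lower with cisplatin, and 0 higher and 1 lower with oxaliplatin. Complex IV had 3 and 4 higher, with medians of 0.0058 and 0.041, and ATP synthase had 2 and 5 higher, with 0 lower in either list. Over all genes 14.3% were higher and 19.7% lower with cisplatin, and 14.7% higher and 19.7% lower with oxaliplatin. With library totals alone, complex I had 34 higher with cisplatin and 33 with oxaliplatin, and 0 lower. Of all genes under that scaling, 34.5% were higher and 5.29% lower with cisplatin, and 36.9% higher and 5.74% lower with oxaliplatin. The mitochondrial genes under that scaling were 1 higher and 3 lower with cisplatin, and 0 higher and 7 lower with oxaliplatin. After removal of the GC content and length trends, 4 mitochondrial genes were lower and 0 higher with cisplatin, and 5 were lower and 0 higher with oxaliplatin.

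Some markers of cell types also moved with the groups, and within a type they did not always move the same way. The summed level of 8 sensory neuron markers was 7450 to 8284 CPM with cisplatin, 7863 to 8479 CPM with oxaliplatin and 8397 to 8863 CPM with vehicle. With each drug 3 of the 8 fell (Scn10a, Scn9a and Isl1) and 1 rose (Calca). The 50% that passed is near the 38.7% of all tested genes with cisplatin and 41.6% with oxaliplatin. The sodium channel gene Scn10a averaged 804, 891 and 1291 CPM with cisplatin, oxaliplatin and vehicle (-0.68, adjusted p = 0.000376, and -0.53, adjusted p = 0.00162). Calca, the gene of a pain-linked neuropeptide, averaged 1635, 1636 and 1254 CPM (0.38 with each, adjusted p = 0.00331 and 0.00294). The 3 satellite glia markers summed to 2542 to 2714, 2688 to 2890 and 2092 to 2363 CPM, most of it Apoe, which rose with both drugs (0.28 and 0.40, adjusted p = 0.0236 and 0.00330). The potassium channel gene Kcnj10 fell with both, at 35.5, 31.0 and 60.1 CPM (-0.76, adjusted p = 0.000288, and -0.96, adjusted p = 5.79e-05). Fabp7 rose with cisplatin (0.32, adjusted p = 0.00452) and had -0.05 with oxaliplatin (adjusted p = 0.587). Calca, Isl1, Apoe and Fabp7 were named after their values were seen.

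The 3 Schwann cell markers summed to 3234 to 4017, 2992 to 3226 and 2220 to 2809 CPM in cisplatin, oxaliplatin and vehicle libraries. All 3 rose with cisplatin, and Prx and Mbp rose with oxaliplatin, beside 15.8% and 17.5% of all tested genes that rose. The 5 erythrocyte markers summed to 91.1 to 199 CPM with cisplatin, 81.1 to 197 CPM with oxaliplatin and 36.5 to 48.8 CPM with vehicle, and the 3 neutrophil markers to 116 to 195, 60.7 to 146 and 29.0 to 72.0 CPM. The 6 skeletal muscle markers, from a tissue rich in mitochondria, summed to 6.43 to 29.1, 5.93 to 45.5 and 6.27 to 23.4 CPM, with all groups overlapping, and the brown fat marker Ucp1 was at or near 0. Aqp4 made up nearly all of the 4 spinal cord glia markers, which summed to 15.04 to 16.5, 14.6 to 16.1 and 17.7 to 19.6 CPM, while Mog, Olig1 and Olig2 were near 0. The part of these shifts in the mitochondrial changes was not tested.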

How the data were processed

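Counts are those the authors deposited, raw reads per gene symbol with 1 file per library. The submitters' processing notes name STAR, SAMtools, HTSeq and the build mm10 (GRCm38), with no version. No source used here gives the annotation or the strand setting. Reads assigned to no single gene, 42.8 to 74.5% of recorded reads, were left out of library sizes. All 37 mitochondrial genes and 35656 of 38926 rows matched GENCODE M21 by symbol. Exact 75-base windows of each mitochondrial transcript were searched in all other GENCODE M21 transcripts. All 9 libraries were fitted together in edgeR 4.0.16 (R 4.3.3, limma 3.58.1) with 1 term per group, TMM scaling, filterByExpr and the quasi-likelihood F test, and p-values were Benjamini-Hochberg adjusted over 17348 genes and called under 0.05. Log2 fold changes carry an SE (the size over the square root of F) and 95% intervals. Pools of animals were the replicates, and where nothing shows separate cohorts, p-values measure the spread between these pools. Replicates were checked for duplicated libraries, and the chi-square per degree of freedom was 4.17 to 583. The floor was 3 counts. Reads carry no molecular identifiers, so intervals and floors cover counting error only. Fits were tested on simulated data. Alternatives were DESeq2 1.42.0, limma-voom, other scalings and filters, a replicate term and leaving out libraries. Removal of GC content and length trends (mgcv 1.9.3), leaving out 2 libraries together and a wider scaling set were chosen after seeing the data.

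The members and gene lists were chosen with earlier results of these data known. By rule, every tested mitochondrial gene may be named, with values in each library for rRNAs, protein genes and called tRNAs. The 2 genes of smallest p in each nuclear list and comparison may also be named, as may genes that collect ribosomal RNA reads.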

Additional observations from a re-analysis of the deposited data

How the results depend on the processing

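Among values of single mitochondrial transcripts under alternatives, 698 kept their side of the threshold (some without a call changed sign, such as mt-Rnr1 with cisplatin), 25 passed newly and 21 were lost. Another 3 reversed, which here means a change of sign with a call in only 1 of the 2 fits compared. No call turned into a call of the opposite sign. The reversals were mt-Ti with cisplatin after removal of GC content and exon length trends (0.59, where its call was lost), and mt-Rnr2 with cisplatin without vehicle library 2 (0.75) and without cisplatin library 3 as well (0.68). mt-Rnr2 with cisplatin had no call in the main fit and passed in both of these. Leaving out 1 library each, mt-Rnr2 with cisplatin ranged from -0.65 to 0.75. The cause was not tested. The mt-Ti call with cisplatin was also lost with median-ratio size factors, library totals alone, DESeq2, 2 groups only and either scaling without mitochondrial genes, and the mt-Rnr1 call with oxaliplatin with limma-voom (adjusted p = 0.0694). DESeq2 gave mt-Rnr1 no adjusted p.

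The number of mitochondrial transcripts called ranged from 3 to 6 with cisplatin and from 5 to 8 with oxaliplatin over all alternatives. Between the drugs it was 0 except with library totals alone, which gave 2. Leaving out 1 library each gave 3 to 6, 5 to 8 and 0 to 0 mitochondrial transcripts, and 4881 to 7309, 5342 to 7697 and 0 to 2 genes over the whole table.

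Genes called between the drugs numbered 2, and 68 with library totals alone, 16 with no filter, 15 with DESeq2, 4 without vehicle library 2 and cisplatin library 3, 1 with a filter of 1 CPM, 1 with limma-voom, and 0 with 2 groups only, with the replicate block and with either scaling that left out mitochondrial and rRNA-collecting genes.

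The log2 ratio of protein-gene shares was 0.36 with cisplatin and 0.22 with oxaliplatin. It became 0.062 and -0.085 on TMM-scaled totals and 0.62 and 0.51 per uniquely aligned read, with ranges of 0.24 to 0.52 and 0.10 to 0.38 when 1 library was left out. The rRNA ratio was -0.06 (-0.39 to 0.88) with cisplatin and -0.83 (-1.16 to 0.12) with oxaliplatin, and 0.80 with cisplatin without both libraries. rRNA per protein read was -0.57 (-0.95 to 0.64) and -1.21 (-1.59 to 0.0053), and 0.53 with cisplatin without both. The tRNA ratio was -0.11 (-0.36 to 0.05) and -0.34 (-0.70 to -0.14). Between the drugs the ranges were 0.07 to 0.18 for protein, 0.66 to 0.86 for rRNA, 0.03 to 0.59 for tRNA and 0.52 to 0.73 for rRNA per protein read.

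Replicate numbers did not pair the libraries. Deviations of same-numbered libraries correlated between -0.13 and 0.10 over 9 pairs, and the best partner had the same number in 8 of 18 cases. With the replicate block, mt-Rnr1 with oxaliplatin had an adjusted p of 0.0585.

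Depth limits mt-Ti, mt-Tm and mt-Tw, with 6 to 65 reads in a library. For mt-Co2, mt-Co3, mt-Atp6, mt-Nd3 and mt-Nd4l the limit is the sequence shared with nuclear copies, and for most other tRNAs lengths under 1 read. Groups of 3 pools and vehicle library 2 limit the rRNAs.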
